A study of Mus musculus with 14 samples.

Results

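The genes described here encode carriers of amino acids, small peptides and monocarboxylates, which bring the products of protein digestion into epithelial cells and move lactate and pyruvate across their membranes. Members were taken by symbol, as every gene of the solute carrier families Slc1, Slc3, Slc6, Slc7, Slc15, Slc16, Slc36, Slc38 and Slc43 in the platform annotation. The families were chosen with earlier results of these data known. This gave 78 genes, of which 75 were measured among 18820 genes in all, and Slc3a1, Slc7a7 and Slc7a10 were listed only on probe sets shared with other genes and are not reported. RNA was measured in 14 samples of 7 groups, 1 Affymetrix Mouse Gene ST array each, and all cells came from mice of a mixed C57Bl6j/CBA background, of both sexes, that carried Lgr5-EGFP-CreERT2, 1 null allele and 1 floxed allele of Cdx2. Sorted stem cells (SCs) were the Lgr5-EGFP-high cells of clonal organoids, in 3 groups. These were Cdx2null SI SCs, from small intestinal organoids in which 4-hydroxytamoxifen had let the Lgr5-driven Cre remove the floxed allele (n = 2), and the untreated control Sto SCs (stomach, n = 2) and control SI SCs (small intestine, n = 3). Whole, unsorted organoids of untreated Cdx2-/fl / Lgr5-EGFP cells were Sto and SI organoids in Sto medium (n = 1 each) and Sto and SI organoids in SI medium (n = 2 and n = 3). SI medium holds EGF, Noggin and R-spondin, and Sto medium adds Wnt, Fgf and gastrin. Organoids were grown in Sto medium before sorting, and all controls keep a single working Cdx2 allele. The number of animals behind each group is not given, so that p-values measure the spread between these samples only. Because these are bulk samples, fewer cells of a type and less RNA per cell cannot be told apart.

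In the small intestine, di- and tripeptides enter enterocytes through the proton-coupled carrier Slc15a1 and neutral amino acids through the sodium-coupled Slc6a19, while Slc7a9, paired with the heavy chain Slc3a1, exchanges cationic amino acids and cystine. On the basolateral side the light chains Slc7a7 and Slc7a8 pair with the heavy chain Slc3a2 for exchange, and the uniporters Slc16a10 and Slc43a2 release aromatic and branched-chain amino acids. Dividing cells rely on other members, among them Slc7a5, Slc1a5 and Slc38a2, which supply essential amino acids and glutamine, and on the lactate carriers Slc16a1 and Slc16a3.

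Some libraries stood apart. Cdx2 was at 8.41 and 4.88 (log2) in the libraries labelled Cdx2null SI SCs 1 and 2, at 5.08 and 4.67 in control Sto SCs and between 8.94 and 10.05 in control SI SCs. The Cdx2 signal of the library labelled Cdx2null SI SCs 1 was thus near that of control SI SCs. The paper states that the array's Cdx2 probes also cover sequence left after recombination. The same probes gave 4.88 in library 2, and the paper genotyped its Cdx2null cultures repeatedly by PCR. What lies behind the signal of library 1 was not tested. In that library the stomach genes Sox2 and Kcnj15 were at 3.68 and 6.50, against 9.83 and 10.47 on array 2. Its intestinal Cdh17 was at 8.44 against 6.04, while its Cdx1, Isx and Cldn18 (4.79, 4.02 and 10.91) were near those of array 2 (4.46, 3.86 and 11.95). For Cdx2null against control SI SCs, log2 differences of Slc1a4 and Slc6a14 are therefore also given without it, which leaves 1 array in that group. The library labelled SI organoids in SI medium 1 went against its label. Its Cdx2 was at 5.52, against 9.92 and 9.67 on arrays 2 and 3 of that group, its stomach marker Cldn18 at 12.23 against 5.42 and 3.94, and 1 of 9 enterocyte markers lay above the median of all probe sets there, against 8 and 9 of 9. Each comparison that rests on that library is therefore given with and without it. Array 3 of the control SI SCs and array 3 of the SI organoids in SI medium had been exported differently from the other arrays. They held over 5 decimals in 99.4% and 99.2% of values, which no other array did. Their values were also distributed differently, with upper quartiles of 7.50 and 7.57, against 7.79 to 7.90. Control SI SCs 1 and 3 and Sto organoids in Sto medium 1 carried a Y-linked transcript. Markers of immune, endothelial and neural cells were all below the median of all probe sets on every array, while the sorted SCs held Lgr5 at 10.77 to 11.56. Mesenchyme markers were mixed. Vim lay at 4.76 to 7.71 and Col1a1 at 4.70 to 5.47, above that median on most arrays. Col1a2 lay at 4.39 to 5.03, and Col3a1 and Pdgfra were below the median on every array.

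Members are described by family, by how many had a group mean above the median of all probe sets and by their range over the 14 arrays, with no test between families. Levels are log2 RMA signals, and since probes differ in how strongly they bind, levels are compared between arrays and not between genes. The arrays' own medians lay between 4.72 and 5.05. Of the 75 members, 46 had at least 1 group mean above 4.87, the median of all probe sets, and 29 did not, with no value of those 29 above 5.92. The range between the lowest and the highest array was at least 2 (4-fold) for 28 members, which is 37.3% of them, against 17.8% of all 18820 genes, and the median range was 1.54 for members and 1.02 for all genes. No filter on low values was applied in the comparisons.

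**Figure D1:**
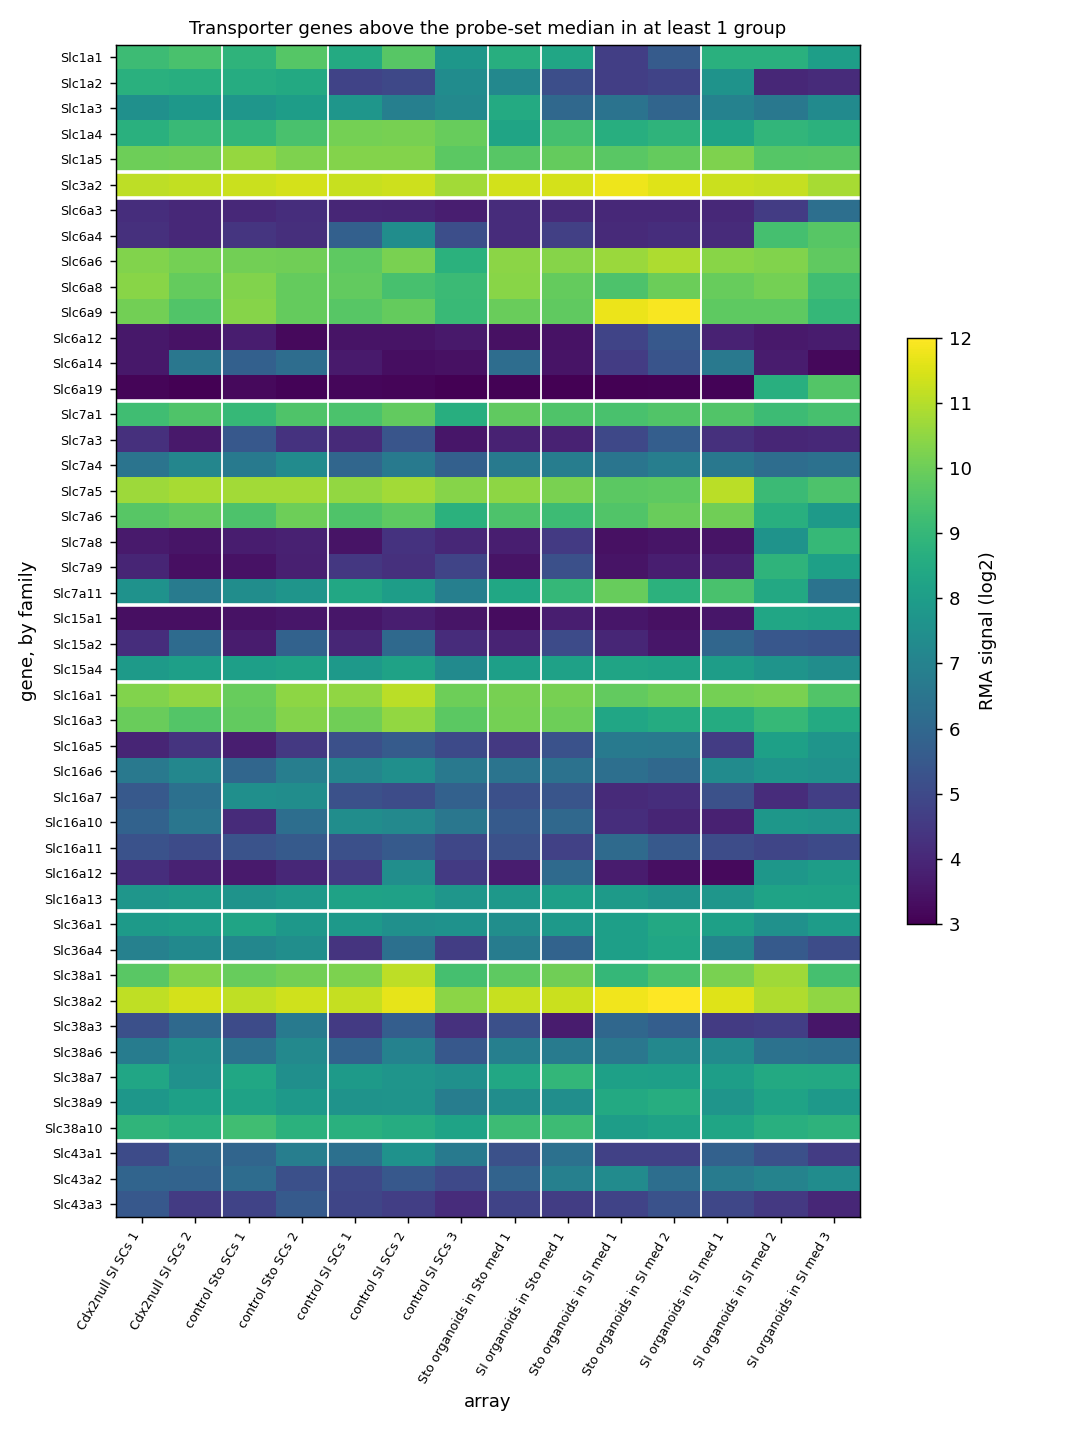
Level (colour, RMA signal on the log2 scale) of the 46 members with a group mean above the median of all probe sets, in rows by family, on each of the 14 arrays in columns, with white lines between families and between groups. Slc6a19, Slc7a8, Slc7a9 and Slc15a1 are bright on 2 arrays alone, SI organoids in SI medium 2 and 3, while Slc3a2, Slc38a2 and Slc6a6 are bright on all 14.

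In the sodium- and chloride-coupled family Slc6, which holds most of the neurotransmitter carriers, 8 of 18 genes passed that level in a group and 7 had a range of at least 2. In Slc7, the light chains and cationic carriers, 8 of 13 passed and 6 had such a range, and in Slc16, the monocarboxylate family, 9 of 13 passed and 5 had it. The glutamate and neutral amino acid family Slc1 had 5 of 7 above that level and 3 with a wide range. Slc38, the sodium-coupled neutral carriers, had 7 of 11 above it and only 2, Slc38a1 and Slc38a3, with a wide range. The peptide family Slc15 had 3 of 5 above it, Slc36 had 2 of 4, and all 3 genes of Slc43 and the only measured gene of Slc3 were above it.

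Carriers of the absorptive epithelium were among the members with the widest ranges. Slc6a19, the main apical carrier of neutral amino acids, was at 3.10, 8.68 and 9.61 on SI organoids in SI medium 1, 2 and 3, and between 2.88 and 3.22 on each of the 11 arrays of the other groups. Slc15a1, the apical peptide carrier, was at 3.54, 8.31 and 8.21 on the same 3 arrays and between 3.30 and 3.75 on the other 11. Both were thus far above their levels elsewhere in SI organoids in SI medium 2 and 3, and within the range of the other groups in the library that goes against its label. SI organoids in Sto medium, the same origin in the other medium, had 3.02 for Slc6a19 and 3.74 for Slc15a1.

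Slc7a9 was at 3.80, 8.87 and 8.10 in SI organoids in SI medium, at 5.19 in SI organoids in Sto medium and at 4.45, 4.26 and 4.83 in control SI SCs. It lay between 3.36 and 3.92 in Cdx2null SI SCs, control Sto SCs and Sto organoids. Slc7a8, the basolateral light chain, was at 3.48, 7.62 and 9.02 in SI organoids in SI medium and at 4.53 in SI organoids in Sto medium, and it was at most 4.33 on the other 10 arrays. Slc16a10, the carrier that releases aromatic amino acids, was less restricted. It was at 5.82 and 6.54 in Cdx2null SI SCs, 4.12 and 6.25 in control Sto SCs and 7.43, 7.24 and 6.58 in control SI SCs, so that the Cdx2null and control SI arrays nearly met without overlapping. Among organoids Slc16a10 was at 5.55 (Sto origin) and 6.05 (SI origin) in Sto medium, at 4.17 and 3.94 for Sto organoids in SI medium and at 3.82, 7.75 and 7.66 in SI organoids in SI medium.

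A pair of further members, chosen after their values were seen, followed the same arrays. Slc6a4, the serotonin carrier by which enterocytes clear serotonin, was at 4.10, 9.34 and 9.67 in SI organoids in SI medium, at 5.77, 7.40 and 5.15 in control SI SCs, and between 4.03 and 4.72 on the other 8 arrays. Slc16a12, a monocarboxylate family member whose human counterpart carries creatine, was at 3.22, 7.76 and 8.03 in SI organoids in SI medium, at 6.11 in SI organoids in Sto medium and at 4.56, 7.45 and 4.54 in control SI SCs, and between 3.37 and 4.18 on the other 7 arrays. Cell type markers moved with these genes. The mean over 9 enterocyte markers was 10.69 and 11.16 on SI organoids in SI medium 2 and 3 and between 4.54 and 7.16 on the other 12 arrays, and the mean over 5 enteroendocrine markers was 8.66 and 9.06 on those 2 arrays and between 3.68 and 5.77 on the other 12. The part of cell composition in the levels of the carriers was not tested.

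**Figure D2:**
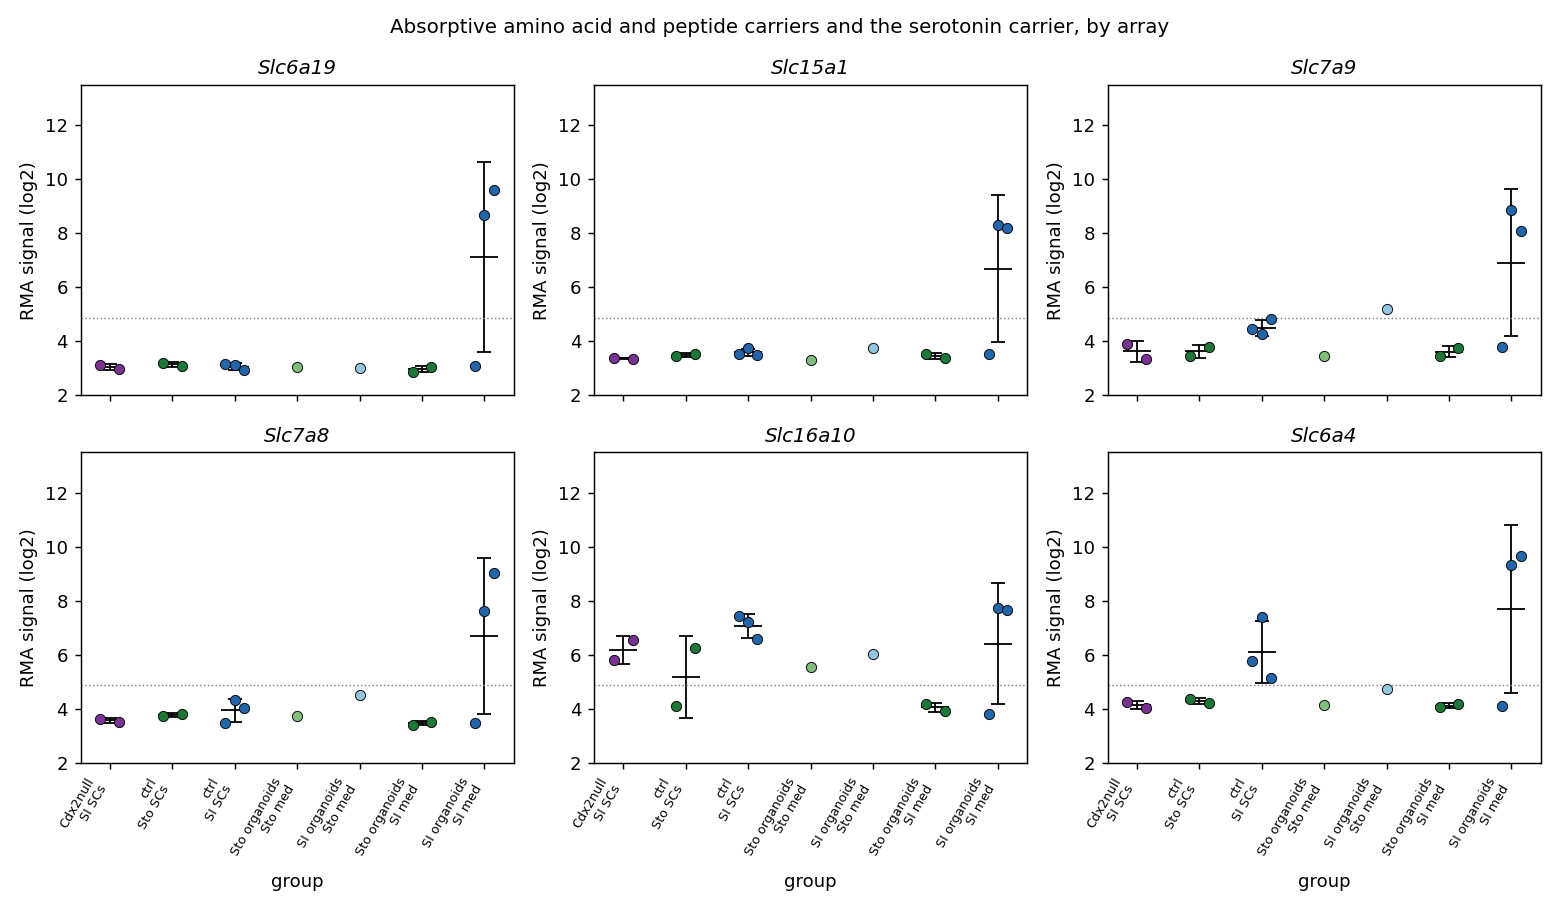
Level (y axis, RMA signal, log2) of Slc6a19, Slc15a1, Slc7a9, Slc7a8, Slc16a10 and Slc6a4 in the 7 groups (x axis), 1 point per array, with bars for the group mean ± SD where n is at least 2 and a dotted line at the median of all probe sets. The 2 high points of the last group are SI organoids in SI medium 2 and 3 and its low point is the library that goes against its label.

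The start regions of the 4 apical and basolateral carriers that were high on those arrays are shown because they moved together, with the core that caudal homeobox factors such as Cdx2 bind. Cdx2 itself was also at 9.19 in SI organoids in Sto medium, where Slc6a19 and Slc15a1 were at 3.02 and 3.74. Sequences are RefSeq windows of 300 bases on GRCm38.p6, 250 before to 50 after the annotated start, written in the direction of transcription. Windows were found for 53 of the 75 members, 70 windows in all. Capitals mark the caudal core TTTATN on either strand.
Slc6a19, chr13:73692587-73692886, minus strand: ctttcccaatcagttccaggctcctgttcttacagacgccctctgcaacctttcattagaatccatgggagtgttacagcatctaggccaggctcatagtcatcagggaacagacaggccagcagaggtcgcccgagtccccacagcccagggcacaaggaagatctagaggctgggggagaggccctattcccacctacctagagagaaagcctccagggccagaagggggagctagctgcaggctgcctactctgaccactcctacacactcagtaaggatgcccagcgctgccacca
Slc15a1, chr14:121505205-121505504, minus strand: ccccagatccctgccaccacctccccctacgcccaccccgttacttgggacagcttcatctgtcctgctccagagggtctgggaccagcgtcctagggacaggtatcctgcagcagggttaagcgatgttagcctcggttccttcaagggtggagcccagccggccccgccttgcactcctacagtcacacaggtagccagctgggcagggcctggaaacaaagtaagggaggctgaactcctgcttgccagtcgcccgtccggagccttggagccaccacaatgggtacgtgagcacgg
Slc7a9, chr7:35448842-35449141, plus strand: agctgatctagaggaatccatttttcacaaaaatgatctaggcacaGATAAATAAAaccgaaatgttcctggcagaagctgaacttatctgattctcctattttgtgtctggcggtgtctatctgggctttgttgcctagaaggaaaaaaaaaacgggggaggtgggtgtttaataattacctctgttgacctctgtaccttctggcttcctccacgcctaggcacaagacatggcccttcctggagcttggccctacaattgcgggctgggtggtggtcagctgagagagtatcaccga
Slc7a8, chr14:54781837-54782136, minus strand: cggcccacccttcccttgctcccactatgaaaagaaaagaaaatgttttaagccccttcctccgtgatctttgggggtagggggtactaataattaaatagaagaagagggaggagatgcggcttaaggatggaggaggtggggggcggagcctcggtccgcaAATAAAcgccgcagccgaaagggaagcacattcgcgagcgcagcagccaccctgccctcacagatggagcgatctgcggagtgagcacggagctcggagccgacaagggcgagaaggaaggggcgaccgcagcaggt
The window of Slc7a9 holds 2 matches that overlap each other, first bases at -204 and -200 from the start, and that of Slc7a8 holds 1 at -87, whereas those of Slc6a19 and Slc15a1 hold none. A second annotated start of Slc7a9 had no match in its window. Such a match is present in 39.9% of the 32851 windows of all genes and in 28.6% of the 70 windows of members, so that it is a common string and describes these letters only.

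The members that serve growing cells were present in all 7 groups. The heavy chain Slc3a2 was at 11.12 and 11.19 in Cdx2null SI SCs, 11.29 and 11.41 in control Sto SCs and 11.24, 11.30 and 10.74 in control SI SCs. In organoids it was at 11.39 (Sto) and 11.42 (SI) in organoids in Sto medium, 11.76 and 11.55 in Sto organoids in SI medium, and 11.29, 11.19 and 10.82 in SI organoids in SI medium. Its range was 1.02, with both arrays that had been exported differently at the low end. Slc38a2, which imports glutamine and alanine and responds to amino acid supply, was at 11.14 and 11.44 in Cdx2null SI SCs, 11.14 and 11.35 in control Sto SCs, and 11.20, 11.65 and 10.42 in control SI SCs. In organoids Slc38a2 was at 11.26 on both arrays in Sto medium, at 11.82 and 12.01 for Sto organoids in SI medium and at 11.57, 10.94 and 10.49 in SI organoids in SI medium, the Sto organoids lying above every other array.

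Slc7a5, the light chain for large neutral amino acids, was at 10.67 and 10.81 in Cdx2null SI SCs, 10.75 and 10.77 in control Sto SCs and 10.55, 10.75 and 10.36 in control SI SCs. It was at 10.49 (Sto) and 10.18 (SI) in Sto medium. The SI medium values were 9.72 and 9.77 for Sto organoids and 11.08, 9.13 and 9.47 for SI organoids, where the array with the highest value is the one that goes against its label. Slc1a5, a glutamine carrier, was at 10.005 and 10.06 in Cdx2null SI SCs, 10.58 and 10.24 in control Sto SCs, 10.32, 10.32 and 9.72 in control SI SCs. In organoids it was at 9.68 and 9.86 in Sto and SI organoids in Sto medium, 9.69 and 9.88 in Sto organoids in SI medium, and 10.25, 9.62 and 9.66 in SI organoids in SI medium. Its highest array was control Sto SCs 1, and its range over the 14 arrays was 0.97.

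Slc16a1, which carries lactate, pyruvate and short-chain fatty acids, was at 10.30 and 10.52 in Cdx2null SI SCs, 9.91 and 10.48 in control Sto SCs, 10.50, 11.05 and 10.01 in control SI SCs. In organoids it was at 10.15 and 10.17 in Sto and SI organoids in Sto medium, 9.84 and 10.01 in Sto organoids in SI medium, and 10.10, 10.21 and 9.55 in SI organoids in SI medium. The 3 groups of SCs overlapped, with control SI SCs 2 the highest array. The taurine carrier Slc6a6 was at 10.28 and 10.12 in Cdx2null SI SCs, 10.07 and 10.05 in control Sto SCs, 9.77, 10.20 and 8.75 in control SI SCs. In organoids it was at 10.43 and 10.38 in Sto and SI organoids in Sto medium, 10.66 and 10.89 in Sto organoids in SI medium, and 10.41, 10.31 and 9.81 in SI organoids in SI medium. It was highest in Sto organoids in SI medium and lowest on control SI SCs 3. Slc36a1, a proton-coupled carrier of small amino acids in lysosomes and the brush border, was at 7.89 and 8.02 in Cdx2null SI SCs, 8.27 and 7.79 in control Sto SCs, 7.86, 7.53 and 7.60 in control SI SCs. In organoids it was at 7.46 and 7.85 in Sto and SI organoids in Sto medium, 8.09 and 8.43 in Sto organoids in SI medium, and 8.11, 7.54 and 7.97 in SI organoids in SI medium. Of these genes, which are known carriers of growing cells or the members of highest mean, Slc3a2, Slc38a2, Slc7a5, Slc1a5, Slc16a1, Slc6a6 and Slc36a1 were not called in a comparison on all libraries, while Slc16a3, the other lactate carrier, was called in 1, given below. A call means a limma adjusted p under 0.05 (Benjamini-Hochberg over all 18820 genes) and at least a 2-fold difference.

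The first contrast, of Cdx2null with control SI SCs, addresses how the carriers of intestinal stem cells differ once Cdx2 is lost. Slc1a4, an exchanger of alanine, serine and cysteine, was lower, and it was the only member called. It was at 8.70 and 9.09 in Cdx2null SI SCs, against 10.13, 10.15 and 9.92 in control SI SCs, and the groups did not overlap. The fall was 2.25-fold (log2 difference -1.17, SE 0.20, adjusted p = 0.0419). In this comparison 1 of 75 members was called, beside 1.52% of all genes, and the median difference was -0.004 over members and 0.03 over all genes. All Cdx2null arrays lay below all control SI SC arrays for 12 members (9.52% of all genes), and above for 10 (15.4%). The call of Slc1a4 was lost without any 1 of the 7 SC arrays, with adjusted p from 0.0531 to 0.170, while the log2 difference stayed between -1.37 and -0.98. It was also lost with a term for sex. Without the library labelled Cdx2null SI SCs 1 the difference of Slc1a4 was -0.98 (SE 0.24, adjusted p = 0.170), and the 1 member called was Slc6a14, a carrier of neutral and cationic amino acids, beside 1.70% of all genes. Slc6a14 was at 3.57 and 6.58 in Cdx2null SI SCs 1 and 2, against 3.64, 3.32 and 3.39 in control SI SCs (log2 3.13 without array 1, SE 0.26, adjusted p = 0.00671), so that array 1 lay among the control SI SCs.

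Slc1a4 is shown with Slc7a11, the cystine-glutamate exchanger, because their windows hold the amino acid response element TGATGNAA, the site through which Atf4 induces genes when amino acids are scarce. Capitals mark that element on either strand.
Slc1a4, chr11:20332664-20332963, minus strand: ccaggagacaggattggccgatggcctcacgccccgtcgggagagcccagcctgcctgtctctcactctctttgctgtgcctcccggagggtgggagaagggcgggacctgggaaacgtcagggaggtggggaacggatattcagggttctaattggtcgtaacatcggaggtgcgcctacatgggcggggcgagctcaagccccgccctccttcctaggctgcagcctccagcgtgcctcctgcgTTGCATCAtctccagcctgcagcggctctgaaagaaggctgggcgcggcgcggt
Slc7a11, chr3:50443564-50443863, minus strand: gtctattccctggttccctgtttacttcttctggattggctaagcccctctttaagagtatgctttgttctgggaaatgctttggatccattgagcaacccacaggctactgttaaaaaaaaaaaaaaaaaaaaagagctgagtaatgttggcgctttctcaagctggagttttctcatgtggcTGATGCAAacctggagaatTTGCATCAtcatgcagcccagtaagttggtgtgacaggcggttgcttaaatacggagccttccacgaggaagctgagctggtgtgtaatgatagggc
The match of Slc1a4 begins at -4 and those of Slc7a11 begin at -66 and -47. The element is present in 3.97% of all windows and in 4 of the 70 windows of members, and neither window shown holds a caudal core. Slc7a11 was at 7.59 and 6.74 in Cdx2null SI SCs, 7.41 and 7.71 in control Sto SCs and 8.40, 8.005 and 6.88 in control SI SCs, so that all groups overlapped, and it was not called.

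Other members moved in the same cells without passing the test, and those named here were chosen after their values were seen. Slc1a2, a high-affinity glutamate carrier, was at 8.72 and 8.64 in Cdx2null SI SCs and at 8.57 and 8.48 in control Sto SCs, against 4.80, 4.97 and 7.38 in control SI SCs. Every Cdx2null and Sto array lay above every control SI array, yet the spread within control SI SCs was wide, the value of 7.38 being on one of the arrays exported differently. The difference from control SI SCs missed the threshold in Cdx2null SI SCs (log2 2.96, SE 0.72, adjusted p = 0.131) and in control Sto SCs (2.81, SE 0.72, adjusted p = 0.0984), and it was called in both without control SI SCs 3. Slc36a4, an amino acid carrier whose human counterpart has a high affinity for proline and tryptophan, was at 6.94 and 7.26 in Cdx2null SI SCs, 7.16 and 7.46 in control Sto SCs and 4.36, 6.33 and 4.64 in control SI SCs. The groups did not overlap here either (Cdx2null 1.99, SE 0.55, adjusted p = 0.181, and Sto 2.20, SE 0.55, adjusted p = 0.0926), and without control SI SCs 2 both were called. Without overlap, 15.4% of all genes were higher in Cdx2null than in control SI SCs, and 19.9% in control Sto than in control SI SCs. Slc16a5, a monocarboxylate family member, was at 3.93 and 4.36 in Cdx2null SI SCs and 3.76 and 4.51 in control Sto SCs, against 5.20, 5.59 and 5.01 in control SI SCs (Cdx2null -1.12, SE 0.28, adjusted p = 0.148). Slc6a14, a carrier of neutral and cationic amino acids, was at 3.57 and 6.58 in the Cdx2null SI SCs, which thus differed from each other. It was at 5.75 and 6.20 in control Sto SCs and at 3.64, 3.32 and 3.39 in control SI SCs (Sto 2.53, SE 0.76, adjusted p = 0.153). In organoids Slc6a14 was at 6.20 (Sto) and 3.48 (SI) in Sto medium, at 4.59 and 5.35 for Sto organoids in SI medium, and at 6.64, 3.70 and 3.19 in SI organoids in SI medium.

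**Figure D3:**
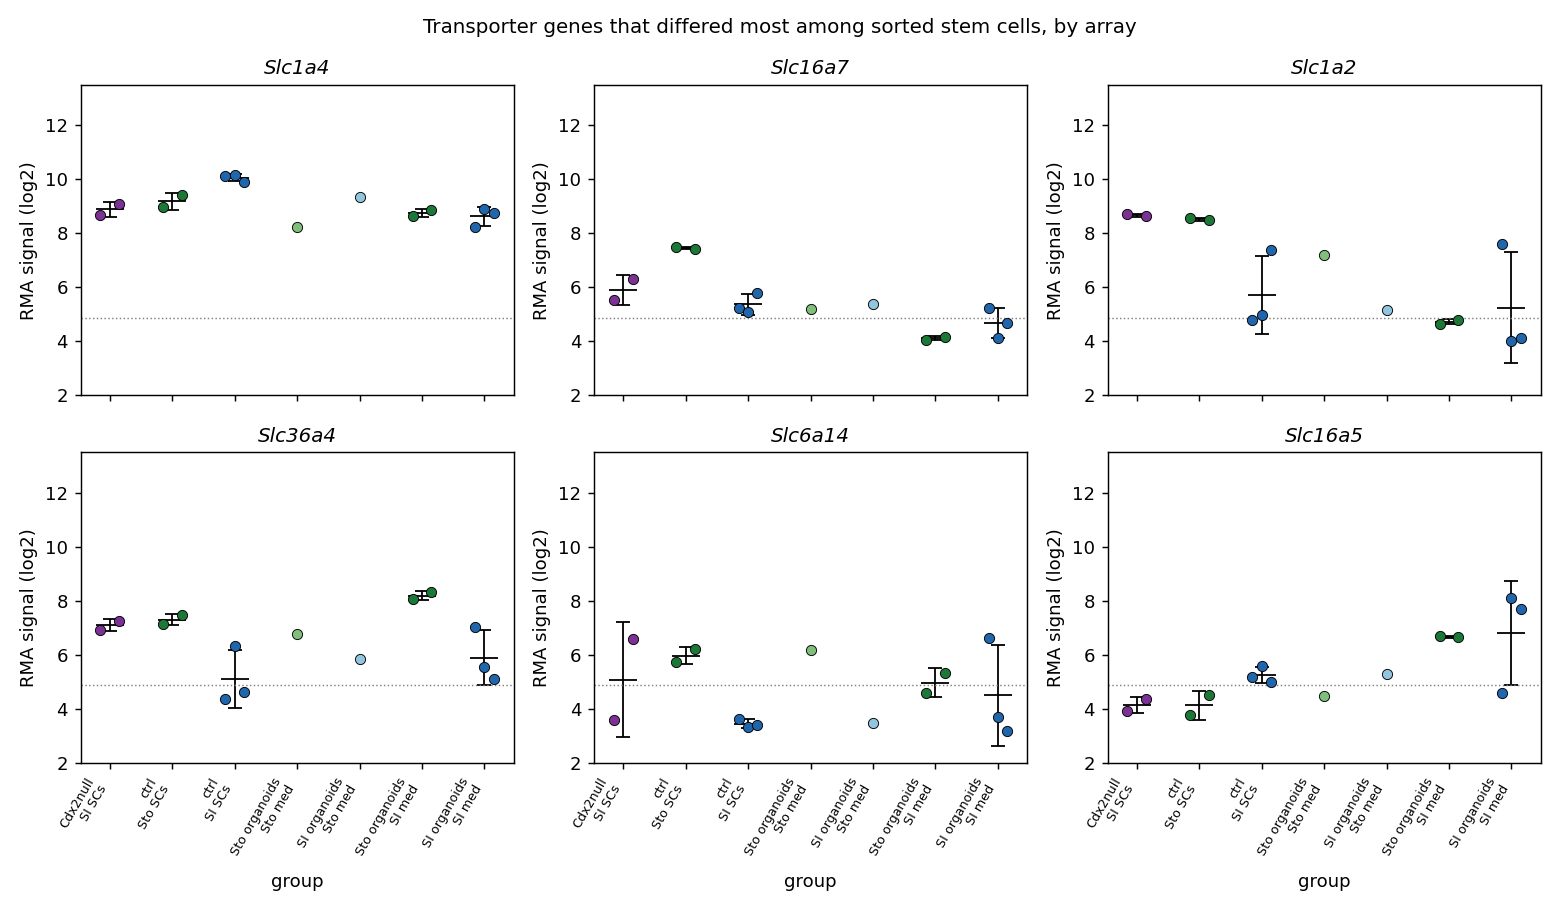
Level (y axis, RMA signal, log2) of Slc1a4, Slc16a7, Slc1a2, Slc36a4, Slc6a14 and Slc16a5 in the 7 groups (x axis), 1 point per array, with bars for the group mean ± SD where n is at least 2 and a dotted line at the median of all probe sets. Slc1a4 lies at 9.92 to 10.15 in control SI SCs, above every other array, and Slc16a7 lies at 7.49 and 7.43 in control Sto SCs, above every other array.

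Slc6a19, Slc15a1, Slc7a9 and Slc7a8 lay below the median of all probe sets on all 7 SC arrays. In Cdx2null SI SCs against control SI SCs the log2 difference was -0.23 for Slc15a1 (SE 0.14, adjusted p = 0.651) and -0.87 for Slc7a9 (SE 0.25, adjusted p = 0.195). Enterocyte markers moved in these samples: 5 of the 9 were called lower in Cdx2null SI SCs and the same 5 in control Sto SCs against the shared control SI SCs, with marker means of 4.66 and 4.54 in Cdx2null SI SCs, 4.60 and 4.55 in control Sto SCs and 6.30, 7.16 and 6.90 in control SI SCs. Their part in the difference of Slc1a4 was not tested. Gastric chief cell markers moved as well. The mean over 3 of them (Pgc, Cblif and Bhlha15) was 9.85 and 7.99 in Cdx2null SI SCs, 9.71 and 9.31 in control Sto SCs and 6.58, 5.81 and 6.55 in control SI SCs, and 5.36 and 5.54 for Sto organoids in SI medium. Cblif and Bhlha15 were called higher in Cdx2null SI SCs and in control Sto SCs than in control SI SCs. Pgc was called in neither and overlapped, at 11.17 and 8.07 in Cdx2null SI SCs, 9.71 and 9.84 in control Sto SCs and 9.47, 6.70 and 9.73 in control SI SCs. Cblif and Bhlha15 were also called higher in control Sto SCs against Sto organoids in SI medium, and for the difference between origin effects. Other lists held calls in both Cdx2null and control Sto SCs against control SI SCs. Tff2 (gastric neck), Gkn1 (gastric pit) and Spdef (goblet) were called higher in both. Tff3 (goblet) and the Paneth genes Defa24 and Ang4 were called lower in both. The part of all these markers in the differences of Slc1a4 and Slc16a7 was not tested.

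Control Sto SCs were compared with control SI SCs to find which carriers differ between stem cells of both organs. Slc16a7, a monocarboxylate carrier of high affinity for pyruvate and lactate, was the only member called. It was at 7.49 and 7.43 in control Sto SCs, against 5.24, 5.08 and 5.81 in control SI SCs, with no overlap, which is a 4.24-fold rise (log2 2.09, SE 0.29, adjusted p = 0.0147). All control Sto SC arrays lay above all control SI SC arrays for 12 members (19.9% of all genes), and below for 7 (10.6%). Here 1 of 75 members was called, beside 2.86% of all genes, with a median difference of 0.07 over members and 0.03 over all genes. The call was lost without either control Sto SC array or without control SI SCs 1, with an adjusted p of up to 0.103 and a log2 difference of at least 1.94, and with a term for sex. Slc1a4, called in the Cdx2null comparison, was at 8.97 and 9.41 in control Sto SCs and did not pass here (-0.87, SE 0.20, adjusted p = 0.0738). With quantile normalisation or with arrays centred on their medians Slc1a4 was called here too. Both comparisons share the control SI SCs, so that their values are not independent of each other.

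When Cdx2null SI SCs were set directly against control Sto SCs, limma called no member, and no gene at all (percent called 0). With 2 arrays a side, and Cdx2null arrays that differed from each other, the lack of calls does not show that the groups were alike. All Cdx2null arrays lay above all control Sto SC arrays for 3 members (10.25% of all genes), and below for 12 (13.52%). At an unadjusted p under 0.05 there was 1 member, beside 1.52% of all genes, and the methods' t-test after Benjamini-Hochberg adjustment called 0 members. Without the library labelled Cdx2null SI SCs 1 that group had 1 array, so calls were not read there. That member was Slc16a7, at 5.53 and 6.31 in Cdx2null SI SCs against 7.49 and 7.43 in control Sto SCs (log2 -1.55, SE 0.32, unadjusted p = 0.00199 in the limma fit, adjusted p = 1), where the groups did not overlap. Slc1a4 was at 8.70 and 9.09 in Cdx2null SI SCs and at 8.97 and 9.41 in control Sto SCs, which overlap.

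Organoids in SI medium were compared by origin, in the medium that allows differentiation. With all libraries, 3 of 75 members were called, beside 1.41% of all genes. Slc6a9, a glycine carrier, was at 11.75 and 11.92 in Sto organoids, against 9.78, 9.75 and 8.99 in SI organoids, and at 9.11 to 10.38 on the other 9 arrays, so that Sto organoids in SI medium stood above all other arrays (5.03-fold, log2 2.33, SE 0.30, adjusted p = 0.0461). Slc1a1, the epithelial carrier of glutamate, aspartate and cysteine, was at 4.67 and 5.59 in Sto organoids, against 8.70, 8.71 and 8.04 in SI organoids (10.2-fold lower, log2 -3.36, SE 0.37, adjusted p = 0.0403). The other 9 arrays held it at 7.76 to 9.67, with no overlap with Sto organoids in SI medium. Slc16a6, a monocarboxylate family member that exports ketone bodies from hepatocytes in zebrafish, was at 6.30 and 6.05 in Sto organoids, against 7.33, 7.66 and 7.57 in SI organoids (2.54-fold lower, log2 -1.34, SE 0.18, adjusted p = 0.0496). Its groups did not overlap here, but across the other 9 arrays it lay at 5.95 to 7.49, over the range of both. In this comparison 14 members lay wholly higher in Sto organoids (20.7% of all genes) and 8 wholly lower (14.2%).

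Without the library that goes against its label, 20 of 75 members were called, which is 26.7% of members beside 13.9% of all genes. Of these 8 were higher (7.57% of all genes were) and 12 lower (6.29% of all genes). The 12 lower ones in Sto organoids included the brush border carriers Slc6a19 (log2 -6.18, SE 0.33, adjusted p = 0.000187), Slc15a1 (-4.79, SE 0.19, adjusted p = 7.15e-05) and Slc7a9 (-4.87, SE 0.30, adjusted p = 0.000313), the basolateral Slc7a8 (-4.85, SE 0.44, adjusted p = 0.00153) and Slc16a10 (-3.65, SE 0.20, adjusted p = 0.000191), and Slc1a1 (-3.25, SE 0.38, adjusted p = 0.00367). Slc6a4, Slc16a12, Slc16a6, Slc16a5, the renal-type peptide carrier Slc15a2 and Slc7a15 made up the rest, with log2 differences from -5.38 (Slc6a4) to -1.23 (Slc16a5). With that library kept, the 5 absorptive carriers had log2 differences from -4.17 (Slc6a19, SE 2.03, adjusted p = 0.405) to -2.35 (Slc16a10, SE 1.30, adjusted p = 0.457), the same direction with none called.

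The 8 members called higher in Sto organoids without that library were Slc36a4, Slc6a9, Slc38a3, Slc6a14, Slc6a12, Slc7a6, Slc7a3 and Slc38a2. Slc36a4 was at 8.07 and 8.33 in Sto organoids, against 5.56 and 5.10 in SI organoids 2 and 3 (log2 2.87, SE 0.24, adjusted p = 0.00103) and 7.05 in the library left out. Slc38a2 rose by 1.20 (SE 0.23, adjusted p = 0.0196), with the values given above. Slc6a12, a carrier of betaine and GABA, was at 4.84 and 5.48 in Sto organoids and between 3.24 and 3.88 on all other arrays (1.51, SE 0.26, adjusted p = 0.0142). The calls of Slc6a9, Slc1a1 and Slc16a6 were kept without that library. That of Slc16a6 was lost with quantile normalisation, centred arrays or limma's intensity trend. It was also lost with the mean of all probe sets of a gene and with only genes above the median of all probe sets. All 3 calls were lost without any 1 of the other 4 arrays of this comparison, with adjusted p of up to 0.392.

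**Figure D4:**
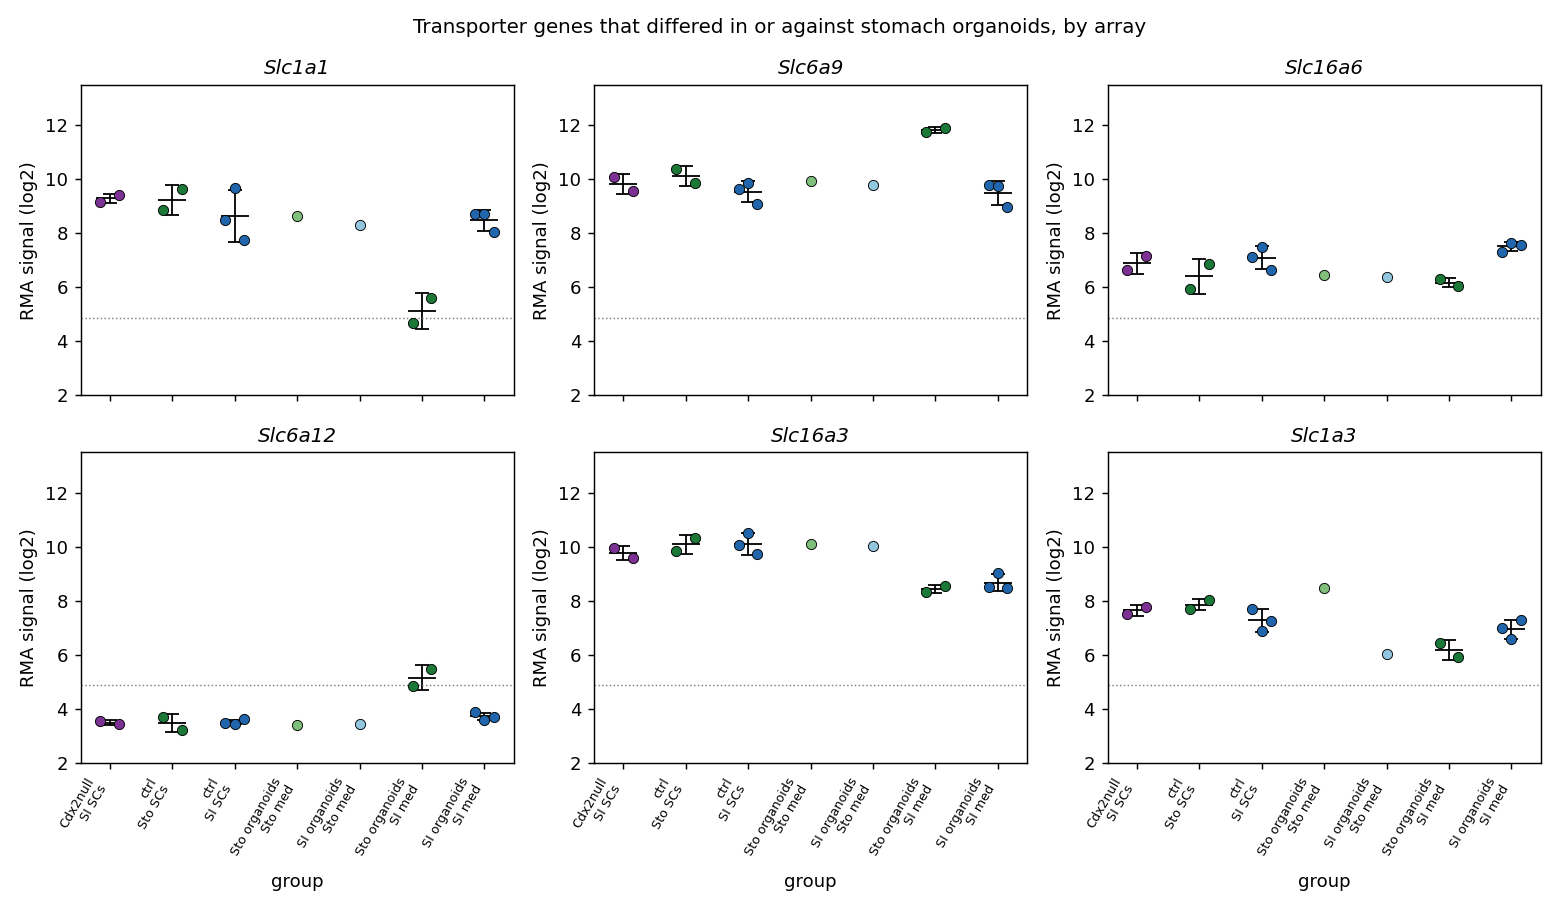
Level (y axis, RMA signal, log2) of Slc1a1, Slc6a9, Slc16a6, Slc6a12, Slc16a3 and Slc1a3 in the 7 groups (x axis), 1 point per array, with bars for the group mean ± SD where n is at least 2 and a dotted line at the median of all probe sets. Sto organoids in SI medium lie at 4.67 and 5.59 for Slc1a1, below every other array, and at 11.75 and 11.92 for Slc6a9, above every other array.

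Sto organoids in SI medium differed from all other groups in their markers too. The mean over 3 proliferation markers was 6.82 and 7.63 in Sto organoids in SI medium and between 9.83 and 10.87 on the other 12 arrays, the mean over 5 intestinal stem cell markers was 4.11 and 4.39 (0 of 5 above the median of all probe sets on both arrays) and between 6.98 and 10.10 elsewhere, and the mean over 4 gastric pit markers was 12.53 and 12.46 and between 4.09 and 6.21 elsewhere. Their part in the differences of Slc1a1, Slc6a9, Slc6a12 and Slc16a6, by origin or against control Sto SCs, was not tested.

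The effect of Sto medium against SI medium in organoids was fitted with origin as an additive term, since each origin had 1 array in Sto medium. No member was called by limma, and no gene at all (percent called 0). Without the library that goes against its label no member was called either, beside 0.0266% of all genes. At an unadjusted p under 0.05 limma gave 7 members, beside 9.65% of all genes. The smallest p was that of Slc16a3, the lactate exporter of glycolytic cells. It was at 10.12 and 10.03 in Sto and SI organoids in Sto medium, against 8.33 and 8.55 in Sto organoids and 8.52, 9.03 and 8.50 in SI organoids in SI medium (log2 1.5002, SE 0.20, unadjusted p = 0.000326, adjusted p = 0.387). The media did not overlap, and the 7 SC arrays lay between 9.60 and 10.53, near the organoids in Sto medium.

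Slc1a1, low in Sto organoids in SI medium, was at 8.64 in Sto organoids in Sto medium, and Slc6a9, high there, was at 9.95. For the brush border carriers the additive term cannot show a difference between origins, which could not be tested with 1 array each in Sto medium. SI organoids 2 and 3 held Slc6a19 at 8.68 and 9.61 in SI medium against 3.02 in Sto medium, while all 3 Sto organoid arrays were between 2.88 and 3.07. Without the library that goes against its label, Slc16a5 came nearest to a call (log2 -2.41, SE 0.20, adjusted p = 0.0511). It was at 4.48 (Sto) and 5.28 (SI) in Sto medium, and at 6.70 and 6.65 in Sto organoids and 8.12 and 7.69 in SI organoids 2 and 3 in SI medium.

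Sorted SCs were then set against whole organoids of the same origin in SI medium, a contrast in which sorting and medium change together and cannot be told apart. Between control Sto SCs and Sto organoids 6 of 75 members were called, beside 6.03% of all genes. Of these 4 were higher (3.74% of all genes were) and 2 lower (2.30%). Without the library labelled SI organoids in SI medium 1, which enters only the estimate of spread, 10 were called beside 9.23% of all genes, 7 higher (5.44%) and 3 lower (3.80%), the 6 described here among them. Leaving out a control Sto SC or Sto organoid array leaves 1 array in that group, and which of the 6 calls were then lost is given below. Slc1a1 was at 8.86 and 9.63 in control Sto SCs, against 4.67 and 5.59 in Sto organoids (log2 4.12, SE 0.57, adjusted p = 0.00326). Slc16a7 was at 7.49 and 7.43 in control Sto SCs, against 4.07 and 4.18 in Sto organoids (3.34, SE 0.38, adjusted p = 0.00127), a 10.1-fold difference. Slc16a3 was at 9.85 and 10.33 in control Sto SCs, against 8.33 and 8.55 in Sto organoids (1.65, SE 0.30, adjusted p = 0.0103), and Slc1a3, a glutamate carrier, at 7.71 and 8.02 in control Sto SCs, against 6.43 and 5.92 in Sto organoids (1.69, SE 0.32, adjusted p = 0.0126).

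Lower in the control Sto SCs were Slc6a12, at 3.71 and 3.24 in control Sto SCs, against 4.84 and 5.48 in Sto organoids (-1.68, SE 0.23, adjusted p = 0.00326), and Slc6a9, at 10.38 and 9.86 in control Sto SCs, against 11.75 and 11.92 in Sto organoids (-1.72, SE 0.34, adjusted p = 0.0170). The groups overlapped in none of the 6, but with 2 arrays a side all arrays of 1 group also lay above those of the other for 16 members (28.2% of all genes) and below for 20 (28.7%). The calls of Slc1a1, Slc16a7 and Slc6a12 were kept without each of 12 arrays in turn. That of Slc16a3 was lost without control Sto SCs 2 or Sto organoids 1 (adjusted p up to 0.0916), that of Slc1a3 without either control Sto SC array or Sto organoids 2 (up to 0.0984), and that of Slc6a9 without control Sto SCs 2 or either Sto organoid array (up to 0.130). With arrays centred on their medians the split over all genes was 554 higher and 1030 lower, against 703 and 432 as deposited, while 4 members were higher and 2 lower on both scales. Elsewhere Slc16a7 was at 5.19 (Sto) and 5.38 (SI) in organoids in Sto medium and at 5.24, 4.14 and 4.67 in SI organoids in SI medium. Slc1a3 was at 7.52 and 7.79 in Cdx2null SI SCs, 7.71, 6.88 and 7.24 in control SI SCs, 8.49 (Sto) and 6.05 (SI) in organoids in Sto medium, and 6.98, 6.59 and 7.30 in SI organoids in SI medium.

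Between control SI SCs and SI organoids the only call on all libraries was Slc1a4 (1 of 75 members, beside 0.159% of all genes). It was at 10.13, 10.15 and 9.92 in control SI SCs, against 8.25, 8.92 and 8.77 in SI organoids (2.68-fold, log2 1.42, SE 0.21, adjusted p = 0.0436), with no overlap. Control SI SCs lay wholly above SI organoids for 3 members (5.05% of all genes), and wholly below for 5 (4.27%). In the remaining organoids Slc1a4 was at 8.26 and 9.35 in Sto and SI organoids in Sto medium and at 8.65 and 8.86 for Sto organoids in SI medium, so that control SI SCs lay above all 11 other arrays. The call was kept only without the library that goes against its label (1.22, SE 0.19, adjusted p = 0.00394) and was lost in the other 11 of 12 fits that left out 1 array, with adjusted p of up to 0.192.

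Without that library 13 members were called between control SI SCs and SI organoids, 17.3% of members beside 5.11% of all genes. Of these 9 were lower in the stem cells (2.93% of all genes were) and 4 higher (2.18%). The lower ones were Slc6a19 (log2 -6.08, SE 0.24, adjusted p = 8.21e-07), Slc15a1 (-4.66, SE 0.14, adjusted p = 2.05e-07), Slc7a8 (-4.38, SE 0.37), Slc7a9 (-3.97, SE 0.28) and Slc6a4 (-3.40, SE 0.51), and Slc16a5, the basolateral uniporter Slc43a2, Slc7a15 and the dopamine carrier Slc6a3. The 4 higher ones were Slc1a4, Slc7a5 (1.25, SE 0.16, adjusted p = 0.00164), Slc16a3 (1.35, SE 0.27, adjusted p = 0.0172) and Slc43a1, a carrier of branched-chain amino acids (1.97, SE 0.42, adjusted p = 0.0233). Slc43a1 was at 6.33, 7.58 and 6.72 in control SI SCs, against 5.20 and 4.61 in SI organoids 2 and 3, and Slc43a2 at 4.95, 5.47 and 4.97 in control SI SCs, against 7.01 and 7.39 in SI organoids 2 and 3, so that these related uniporters ran in opposite directions.

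**Figure D5:**
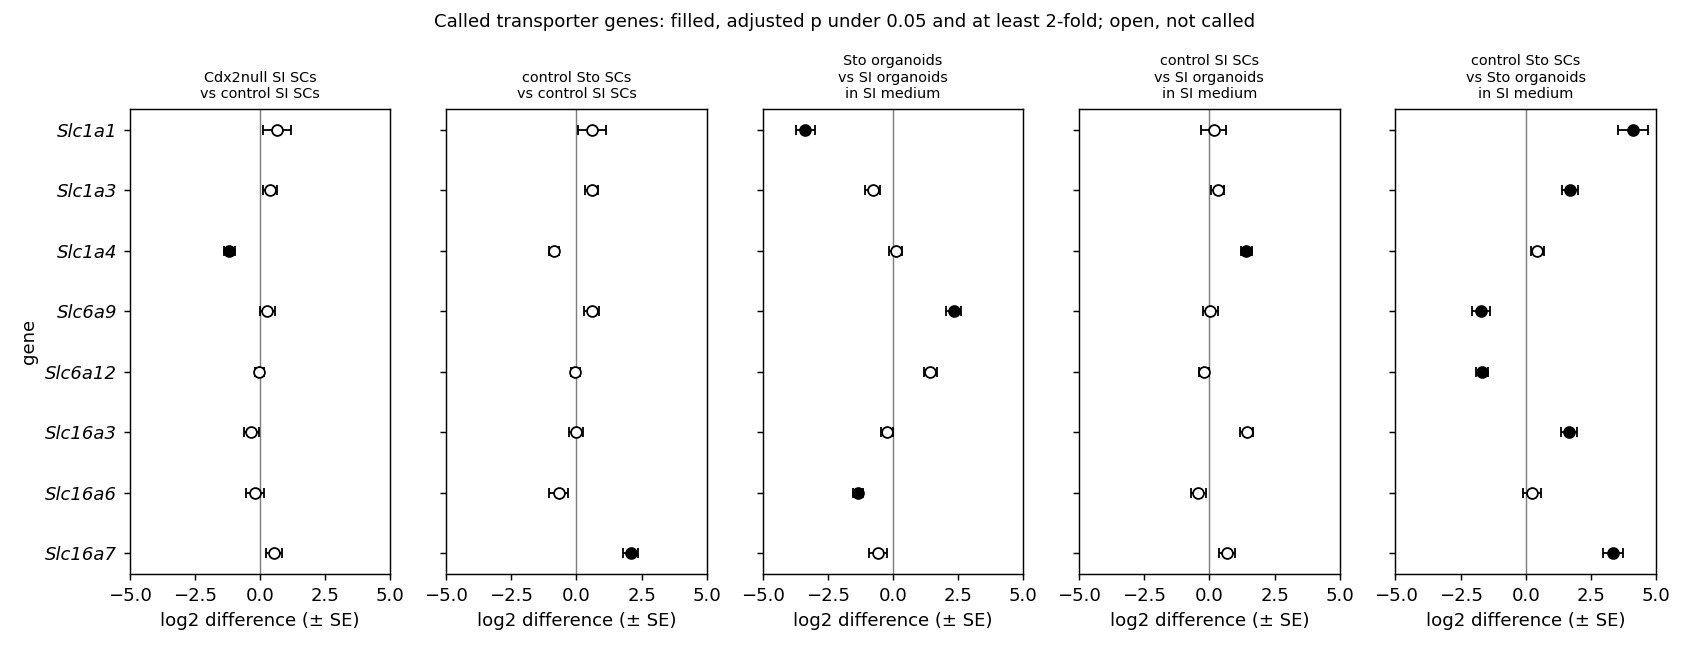
Log2 difference (x axis, ± SE from limma) of the 8 members called in these comparisons (y axis) in 5 comparisons on all libraries, the first named group minus the second. Filled points are called and open points are not. Slc1a1 is at -3.36 in Sto against SI organoids and at 4.12 in control Sto SCs against Sto organoids, both filled, and near 0 in control SI SCs against SI organoids.

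Whether the difference between origins was the same in SCs as in organoids in SI medium was tested as the origin effect in SCs minus that in organoids, over all 14 arrays. On all libraries 2 of 75 members were called, beside 0.845% of all genes, both with a positive value. The stomach minus intestine difference of Slc1a1 was 0.60 in SCs, not called, and -3.36 in organoids. That of Slc16a7 was 2.09 in SCs and -0.56 in organoids, the latter not called. For Slc1a1 the log2 difference between the effects was 3.96 (SE 0.73, adjusted p = 0.0479) and for Slc16a7 it was 2.64 (SE 0.49, adjusted p = 0.0478). Without the library that goes against its label 10 were called, 13.3% of members beside 4.54% of all genes, 8 of them positive (2.88% of all genes) and 2 negative (1.66%). Slc6a19 (6.26, SE 0.36, adjusted p = 2.14e-05) and Slc15a1 (4.69, SE 0.20, adjusted p = 3.70e-06) were the members with the smallest p. Both calls on all libraries were lost in 10 of 12 fits that left out 1 array, and that of Slc16a7 also with quantile normalisation or centred arrays.

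The enzymes and partner proteins that work with these carriers were examined by lists. Of 9 measured partners (the chaperones and the ion exchangers that drive uptake), none was called between SC groups or by origin in organoids. Slc9a3, the apical sodium-proton exchanger whose gradient drives Slc15a1, was called in control Sto SCs against Sto organoids in SI medium. It was at 11.50 and 11.23 in control Sto SCs, against 3.73 and 4.40 in Sto organoids (log2 7.30, SE 0.81, adjusted p = 0.00124), and it was called too for the difference between origin effects. Of 12 measured peptidases, Mep1b, a subunit of the brush border protease meprin, was called lower in control Sto SCs than in control SI SCs (-2.04, SE 0.38, adjusted p = 0.0401), at 3.61 and 3.53 in control Sto SCs, against 4.94, 6.40 and 5.49 in control SI SCs. Aminopeptidase N (Anpep), which yields free amino acids for Slc6a19, was at 11.74 and 11.88 in control Sto SCs, against 5.65 and 7.54 in Sto organoids (5.21, SE 0.58, adjusted p = 0.00124), and likewise for the difference between origin effects. All 12 peptidases lay above the median of all probe sets in SI organoids in SI medium 2 and 3, against 5 in the library labelled array 1 of that group.

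Of 13 measured genes of the amino acid response, Mthfd2, a mitochondrial folate enzyme, and Cebpb, a transcription factor, were called higher in control Sto SCs than in Sto organoids (1.04, SE 0.16, adjusted p = 0.00607 and 1.41, SE 0.19, adjusted p = 0.00300), and none was called in the other 7 comparisons. Of 12 measured genes of lysosomal amino acid sensing and export, Slc66a1, which exports cationic amino acids from lysosomes, was called lower in control Sto SCs than in Sto organoids (-1.30, SE 0.30, adjusted p = 0.0331) and none was called in the others. Asns, the asparagine synthetase gene and an Atf4 target, was at 11.50 and 11.68 in Cdx2null SI SCs and at 11.54, 11.58 and 11.43 in control SI SCs, which overlap.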

How the data were processed

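The 14 RNA samples were measured on 1 Affymetrix Mouse Gene ST array each. The authors summarised the scans with RMA-sketch and deposited log2 values for 35556 probe sets, which were used without further normalisation. RMA makes arrays alike in distribution and keeps a background signal, so that folds of weakly expressed genes are compressed. The deposited signals carry no depth, and precision is limited by how many arrays there are. Probe sets with 1 listed gene (21218) were kept, 1 per gene by the highest mean, which left 18820 genes. Of the members, 5 had over 1 probe set. Sequences are from a RefSeq table. Groups came from the labels. Comparisons were fitted with limma 3.58.1 (lmFit and eBayes, 2-sided) in R 4.3.3, adjusted by Benjamini-Hochberg over all genes, on 7 SC arrays, 7 organoid arrays or all 14. The methods' t-test was an alternative, as were other normalisations, filters, a replicate block, a sex term and each array left out in turn. Fits were tested on simulated data. Values or ranges over every array are given for members called on all libraries, the classical carriers of the intestinal epithelium and the 5 members of highest mean. The members and lists were chosen with earlier results of these data known.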

Additional observations from a re-analysis of the deposited data

Results flagged for a closer look

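For Slc1a1 and Slc16a7 the effect of origin differed between sorted SCs and whole organoids in SI medium. This was a test of the difference itself, an interaction term in limma over all 14 arrays. Sorting and medium change together in it and cannot be told apart. For Slc16a7 the origin effect in SCs minus that in organoids was 2.64 on the log2 scale (SE 0.49, adjusted p = 0.0478), and 10 of 12 fits that left out 1 array lost the call (log2 2.36 to 2.91, adjusted p 0.0137 to 0.198). For Slc1a1 it was 3.96 (SE 0.73, adjusted p = 0.0479), and again 10 of 12 such fits lost it (3.49 to 4.47, adjusted p 0.0204 to 0.218). For Slc16a7 the difference lay in the SCs, at 7.49 and 7.43 in control Sto SCs and 5.24, 5.08 and 5.81 in control SI SCs. For Slc1a1 it lay in the organoids in SI medium, at 4.67 and 5.59 for Sto and 8.70, 8.71 and 8.04 for SI organoids. In Sto medium Slc1a1 was at 8.64 in Sto and 8.32 in SI organoids, with 1 array each. The value of 8.70 is that of the library that goes against its label. The mean over 3 gastric chief cell markers was 9.71 and 9.31 in control Sto SCs and 6.58, 5.81 and 6.55 in control SI SCs. Of these markers, Pgc overlapped between the groups. The part of these markers in the difference of Slc16a7 was not tested. Groups of 4 or more arrays, which a formal outlier test needs, were not present.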

How the results depend on the processing

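The difference of each called member kept its sign under every alternative run, but the split of calls over all genes turned in some. It was 90 higher and 69 lower for the difference between origin effects and 107 and 185 with centred arrays, and 23 and 7 in control SI SCs against SI organoids and 410 and 551 without SI organoids in SI medium 1. With arrays centred on their medians the calls among members were 3 (0 higher) in Cdx2null SI SCs against control SI SCs, 6 (2 higher) in control Sto SCs against control SI SCs and 2 in control SI SCs against SI organoids, and with quantile normalisation 3 (1 higher) in control Sto SCs against control SI SCs and 2 in control SI SCs against SI organoids. Centring shifted the median of all genes to -0.12 in Cdx2null against control SI SCs and to -0.30 in control Sto SCs against Sto organoids. Counts of members in this section are given without the share of all genes called. They show how calls changed with the setting and are no result about the members. Tested on the arrays compared alone, the counts were 0 in Cdx2null against control SI SCs, 2 in control Sto against control SI SCs, 0 in control SI SCs against SI organoids and 10 in control Sto SCs against Sto organoids, and only genes above the median of all probe sets gave 2 in control Sto against control SI SCs. The methods' t-test gave 2, 3, 7 and 5 members unadjusted (Cdx2null against control SI SCs, control Sto against control SI SCs, Sto against SI organoids, control SI SCs against SI organoids) and 0 after adjustment in each comparison it was run on. Replicate numbers were not taken to pair the samples, since the correlation of deviations was 0.07 in 1 SC pair (up to 0.40 in the others) and -0.06 in organoids, although 6 of 7 SC arrays matched best with their own number. With the replicate block the counts were 4, 3, 0 and 2 in the same order, with Slc16a5 and Slc1a2 called in both SC comparisons and Slc43a1 in the first, while for the difference between origin effects Slc16a7 was lost and Slc6a9 gained. A sex term gave 2 in Cdx2null against control SI SCs, 2 in control Sto against control SI SCs, 0 in control SI SCs against SI organoids and 0 for the difference between origin effects, and could not be fitted for origin in organoids. Without both arrays exported differently the last 2 of these were 0 and 0. Leaving out 1 array gave 0 to 1 members in Cdx2null against control SI SCs (Slc6a14, Slc36a4 or Slc1a2, each higher, and not Slc1a4), 0 to 2 in control Sto against control SI SCs, 0 to 0 in Cdx2null against control Sto SCs, 0 to 20 by origin in organoids, 0 to 0 by medium, 0 to 13 in control SI SCs against SI organoids, 3 to 10 in control Sto SCs against Sto organoids, and 0 to 10 for the difference between origin effects. Each of the counts of 10, 13 and 20 came without the library labelled SI organoids in SI medium 1. Leaving out an array of a group of 2 left that group with 1 array, as for Slc6a14. The cause of these changes was not tested. Groups of 1 to 3 arrays and signals near background limit what small changes could be seen.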
